A study of Mus musculus with 18 samples.

Results

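The TGF-beta superfamily ligand genes and the latent TGF-beta binding protein (LTBP) genes were examined in bone marrow-derived macrophages (BMDM), which are macrophages grown in culture from mouse marrow. A fixed list of 36 genes was looked up by symbol in the GENCODE vM21 annotation, where all 36 were found among 55413 genes, 21938 of them protein-coding. The list holds 3 TGF-betas, 4 LTBPs, 9 bone morphogenetic proteins (BMPs), 11 growth and differentiation factors (GDFs, with myostatin), 5 subunits of activin and inhibin, 3 genes of Nodal and its inhibitors Lefty1 and Lefty2, and anti-Müllerian hormone (Amh).

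Most ligands of this superfamily are secreted dimers that bind pairs of type I and type II receptor kinases, which then phosphorylate Smad proteins. TGF-beta leaves the cell in a latent complex that LTBPs tether to the extracellular matrix, and integrins, proteases or thrombospondin release it. Trimethylation of histone 3 lysine 27 (H3K27me3) is laid down by Polycomb complexes and is classically found at silent developmental genes, while acetylation of the same lysine (H3K27ac) is found at active promoters and enhancers.

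BMDM came from male WT mice (labelled C57BL6), mdx mice (labelled Dmdmdx-4Cv, with a mutation in the dystrophin gene) and mdxTLR4-/- mice (labelled Bl6/Bl10, mdx mice that also lack TLR4), and the cells of all 3 genotypes were untreated. H3K27me3 was profiled with 2 ChIP and 2 input libraries of each genotype. H3K27ac was profiled with 2 WT, 2 mdx and 1 mdxTLR4-/- ChIP libraries, and its 1 input carries no genotype in the labels. The labelled ages were 12 to 13 weeks for WT, 14 to 15 for mdx and 16 to 17 for mdxTLR4-/- in the H3K27me3 ChIP libraries, 6 to 11 weeks in their inputs, 19 to 20, 21 to 22 and 23 weeks in the H3K27ac ChIP libraries and 18 weeks in the H3K27ac input. These ages rise by exactly 1 week from each library to the next across the series, so that it is not known whether they are true ages. Labelled strain, and age if the labels hold, cannot be told apart from genotype. Of 10 macrophage markers, such as Spi1, Itgam and Cd68, 0 had H3K27me3 over at least 50% of their window in any genotype, and 10 in WT, 9 in mdx and 10 in mdxTLR4-/- had an H3K27ac peak within 5 kb of the start. The exception was Csf1r in mdx, whose nearest peak, with 165 reads, began 5.003 kb from the start. Of 14 markers of T, B, erythroid, muscle and neutrophil cells and fibroblasts, 7, 6 and 5 had H3K27me3 over at least 50% of their window in the same order of genotypes, and 2, 1 and 1 had an H3K27ac peak.

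The data are 6 lists of peaks, 1 for each mark and genotype, called after the reads of the replicates had been merged. Each peak has a position and a count of reads. Since whole cultures were assayed, fewer cells with a mark and less of the mark per cell cannot be told apart. There is no spread between mice, and no difference between genotypes given here has a p-value. The H3K27me3 lists of WT, mdx and mdxTLR4-/- hold 28143, 41780 and 36488 peaks, whose median counts were 123, 89 and 75 reads. Those of H3K27ac hold 15665, 12076 and 12493 peaks with median counts of 10, 10 and 8 reads, so the presence of a single H3K27ac peak can rest on few reads. The depth of the libraries is unknown. Intervals are at the 95% level and cover the counting of reads, or the spread over genes, and not the spread between mice.

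Promoter sequences are shown for 8 members that stand for the range of states described below. RefSeq promoter windows were matched for 25 of the 36 members, and the 250 bases before the transcription start are printed 5′ to 3′ on the strand of the gene (build GRCm38.p6), with each CpG dinucleotide in capitals. Tgfb1 (chr7:25686752-25687001, plus strand) carried H3K27ac and no H3K27me3, and Gdf15 (chr8:70632457-70632706, minus strand) had H3K27ac on either side of its start. Inhbb (chr1:119422249-119422498, minus strand) and Gdf7 (chr12:8301955-8302204, minus strand) lay under dense H3K27me3 in every genotype. Gdf10 (chr14:33923337-33923586, plus strand) and Ltbp3 (chr19:5740650-5740899, plus strand) lay under H3K27me3 domains that covered less in mdx. Mstn (chr1:53061390-53061639, plus strand) and Bmp5 (chr9:75775115-75775364, plus strand) had neither mark.
Tgfb1: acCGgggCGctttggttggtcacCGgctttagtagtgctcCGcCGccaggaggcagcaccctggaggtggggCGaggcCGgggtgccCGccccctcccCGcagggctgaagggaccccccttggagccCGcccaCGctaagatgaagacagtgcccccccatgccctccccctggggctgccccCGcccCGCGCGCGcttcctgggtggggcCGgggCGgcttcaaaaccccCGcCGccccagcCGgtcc
Gdf15: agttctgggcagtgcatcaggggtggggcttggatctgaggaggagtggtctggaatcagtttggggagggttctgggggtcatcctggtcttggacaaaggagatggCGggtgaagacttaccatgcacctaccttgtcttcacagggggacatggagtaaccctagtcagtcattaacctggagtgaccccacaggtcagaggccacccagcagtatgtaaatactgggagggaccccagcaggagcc
Inhbb: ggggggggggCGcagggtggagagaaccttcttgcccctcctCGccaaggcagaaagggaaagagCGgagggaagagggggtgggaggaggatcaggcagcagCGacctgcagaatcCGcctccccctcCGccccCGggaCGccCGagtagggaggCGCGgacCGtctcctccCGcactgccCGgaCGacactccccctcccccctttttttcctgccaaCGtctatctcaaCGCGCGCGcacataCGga
Gdf7: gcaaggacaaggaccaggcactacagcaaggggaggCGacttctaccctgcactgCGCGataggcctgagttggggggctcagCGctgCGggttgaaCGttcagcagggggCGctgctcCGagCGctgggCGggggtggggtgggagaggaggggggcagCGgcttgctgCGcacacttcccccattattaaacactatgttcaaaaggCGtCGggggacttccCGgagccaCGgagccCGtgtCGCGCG
Gdf10: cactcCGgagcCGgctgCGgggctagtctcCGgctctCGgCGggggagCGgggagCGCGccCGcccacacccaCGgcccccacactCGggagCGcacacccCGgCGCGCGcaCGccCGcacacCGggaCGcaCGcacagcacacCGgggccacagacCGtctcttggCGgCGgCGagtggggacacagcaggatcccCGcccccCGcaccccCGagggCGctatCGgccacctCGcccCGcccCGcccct
Ltbp3: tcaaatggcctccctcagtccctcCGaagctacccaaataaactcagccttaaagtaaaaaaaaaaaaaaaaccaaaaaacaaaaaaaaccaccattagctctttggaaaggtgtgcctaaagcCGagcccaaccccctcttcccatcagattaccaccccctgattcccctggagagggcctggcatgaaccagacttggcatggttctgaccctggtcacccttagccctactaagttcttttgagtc
Mstn: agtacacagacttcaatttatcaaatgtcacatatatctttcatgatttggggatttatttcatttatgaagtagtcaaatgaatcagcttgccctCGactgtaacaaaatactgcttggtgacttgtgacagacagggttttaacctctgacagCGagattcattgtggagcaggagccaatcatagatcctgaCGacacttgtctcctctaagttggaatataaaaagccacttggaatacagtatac
Bmp5: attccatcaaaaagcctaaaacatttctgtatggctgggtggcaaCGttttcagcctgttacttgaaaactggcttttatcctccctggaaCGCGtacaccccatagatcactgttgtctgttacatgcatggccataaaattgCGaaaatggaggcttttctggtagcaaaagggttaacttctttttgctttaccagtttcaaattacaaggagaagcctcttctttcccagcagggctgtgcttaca
The window of Gdf10 holds 35 CpGs, those of Tgfb1 and Inhbb 21 each and those of Gdf7 20. At the other end, the windows of Ltbp3, Mstn, Bmp5 and Gdf15 hold 2, 3, 4 and 1. The members outside this set of 25 are Tgfb3, Bmp2, Bmp3, Bmp7, Gdf3, Gdf5, Gdf6, Gdf9, Lefty1, Lefty2 and Amh.

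For H3K27me3, the coverage of a gene was the share of its window under peaks, and this window adds 5 kb before the gene and 1 kb after it to the gene body. Genes with coverage of at least 50% are called Increased here (I in a pattern) and all others Unchanged (U). The study used these names for a comparison of ChIP with input signal, which was not made here. In WT BMDM 18 of the 36 members were Increased, in mdx 16 and in mdxTLR4-/- 16, against 16.6%, 16.3% and 14.9% of all protein-coding genes. A peak lay over the transcription start of 23, 24 and 24 members, against 23.5%, 23.8% and 22.7% of protein-coding genes. The median coverage of the members was 41.9% in WT (12.6% to 73.8% by the order-statistic interval over members). It was 36.9% (23.3% to 59.1%) in mdx and 33.6% (17.1% to 61.7%) in mdxTLR4-/-, while the median over protein-coding genes was 0 in each genotype. Most members kept their designation across the genotypes, with 14 Increased in all 3, 17 in none and 5 differing (Bmp2, Gdf5, Gdf10, Inhbe and Lefty1).

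**Figure D1:**
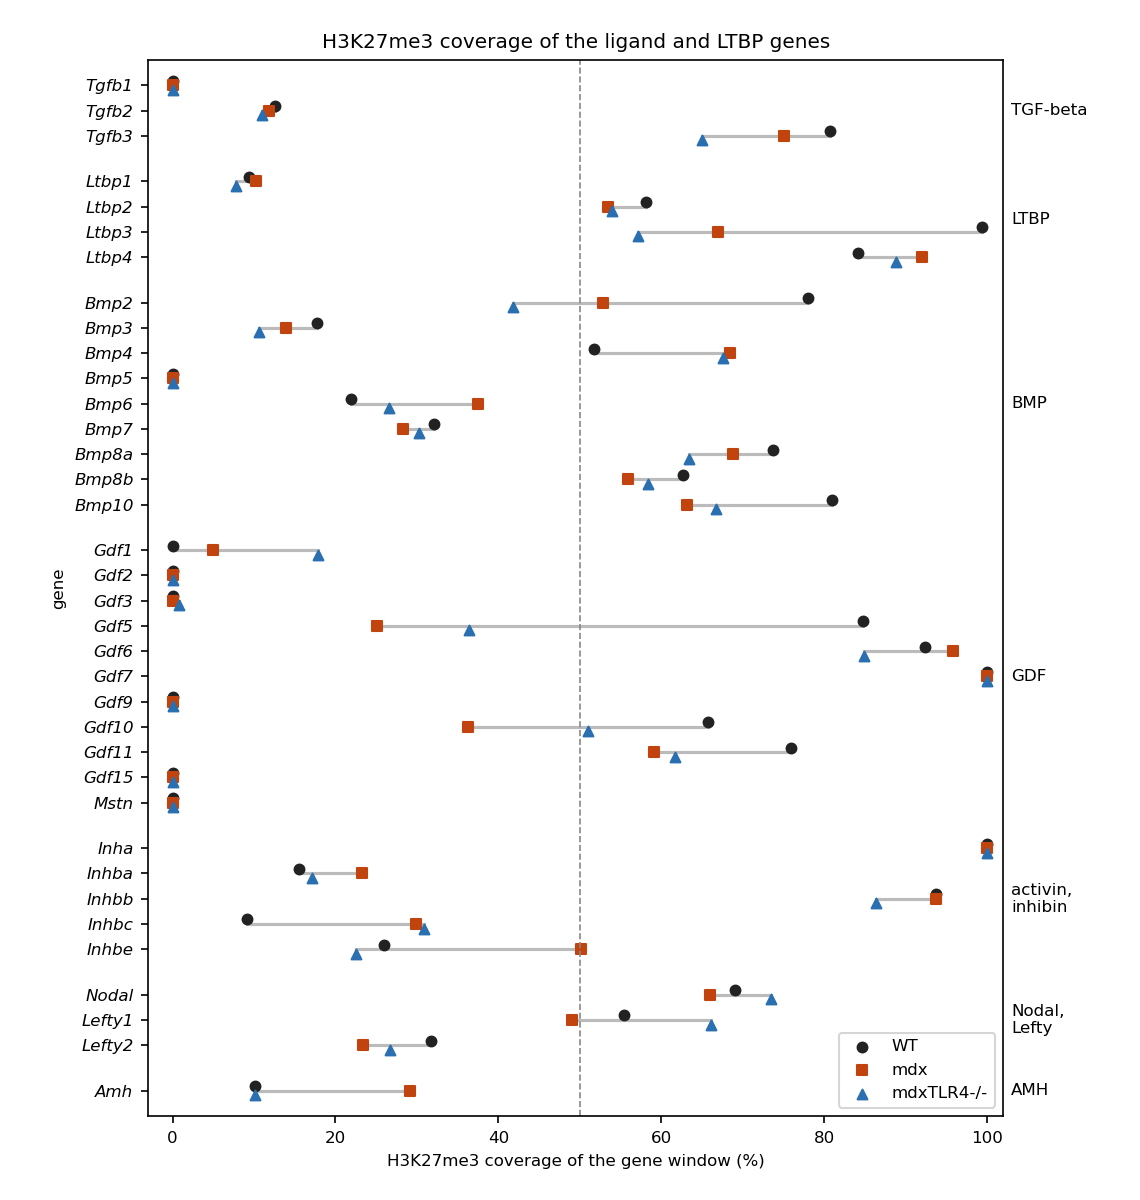
H3K27me3 coverage of the gene window, in percent, for each of the 36 members (rows, grouped by role), with 1 point per genotype and a grey bar from the lowest to the highest. The dashed line marks 50%. Inha and Gdf7 sit at 100% in every genotype, 6 genes sit at 0, and the widest bar is that of Gdf5, from 25.1% to 84.7%.

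The peaks of the members were centred near the start. Among the members the share with an H3K27me3 peak was 63.9% at the start itself, 41.7% at 5 kb upstream and 38.9% at 10 kb downstream in WT BMDM. At the same 3 points it was 66.7%, 44.4% and 41.7% in mdx and 66.7%, 41.7% and 30.6% in mdxTLR4-/- BMDM. For all protein-coding genes the WT values were 23.5%, 20.3% and 16.6%, so the members stood above protein-coding genes as a whole at each of these points. H3K27ac showed the opposite order, with a peak at the start itself in 24.0% of protein-coding genes in WT and in 2 of 36 members.

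**Figure D2:**
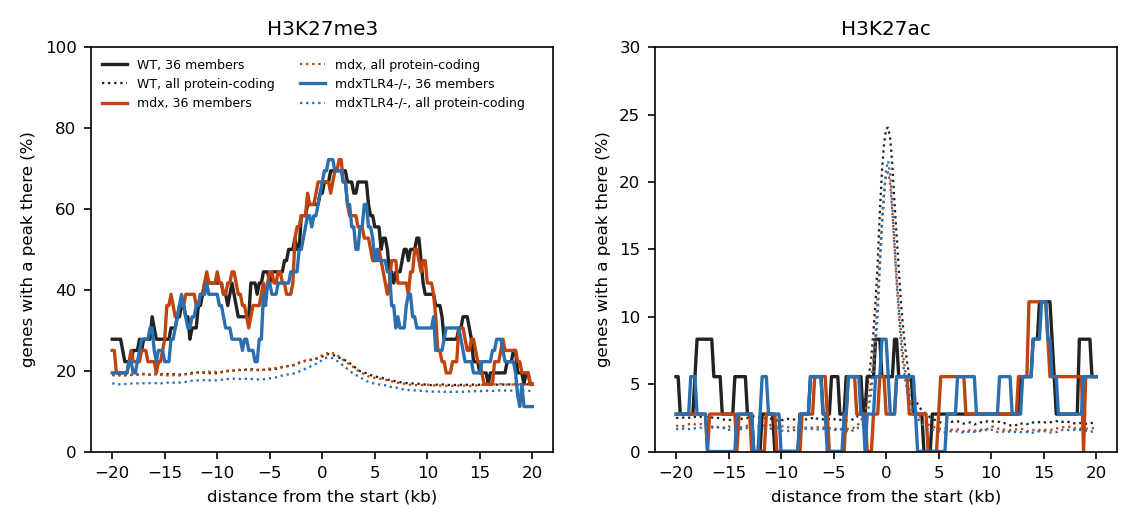
Percent of genes with a peak (vertical axes) at each distance from the transcription start in kb (horizontal axes), for H3K27me3 (left) and H3K27ac (right), with the 36 members as solid lines and all protein-coding genes as dotted lines. The solid H3K27me3 lines reach 63.9% to 66.7% at the start against 22.7% to 23.8% for the dotted lines, and for H3K27ac the dotted lines are the higher ones at the start.

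The 3 TGF-beta genes differed from each other in every genotype. Tgfb1 (ENSMUSG00000002603.15, chromosome 7 from 25687002 to 25705077, plus strand, build mm10 as at all genes), which encodes the isoform that macrophages and platelets are known for, had no H3K27me3 in its window in any genotype. An H3K27ac peak lay over its start in each genotype, and its counts in WT, mdx and mdxTLR4-/- were 21, 24 and 14 reads. An upstream H3K27ac peak, which reached from 5.20 to 2.20 kb before the start in WT, held 10, 13 and 12 reads. Tgfb1 was the only TGF-beta gene with H3K27ac, and its 2 peaks lay at like positions in the 3 lists.

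Tgfb2 (ENSMUSG00000039239.14, chromosome 1 from 186622792 to 186705989, minus strand) and Tgfb3 (ENSMUSG00000021253.7, chromosome 12 from 86056745 to 86079041, minus strand) are the isoforms known from heart, craniofacial and palate development, and a peak of H3K27me3 lay over the start of each in all 3 genotypes. At Tgfb2, a gene of 8 exons in the coding transcript that has the most, the peaks covered the promoter, the first exon and part of the first intron and left the rest of the body free, for a coverage of 12.6% in WT, 11.9% in mdx and 11.0% in mdxTLR4-/-. The peaks at Tgfb2 held 424, 523 and 419 reads. At Tgfb3 the peaks touched 5 of 7 exons in each genotype and covered 80.7% (WT), 75.1% (mdx) and 65.0% (mdxTLR4-/-) of the window, with 709, 784 and 519 reads. The same peak of Tgfb3 also lay over the start of the neighbouring gene Ift43. The unscaled read density (reads divided by kb of peak) at Tgfb2 in mdx was 1.30 times that in WT (1.14 to 1.48 by the exact interval of the counts), and that at Tgfb3 was 1.25 times (1.12 to 1.38), close to the ratio of protein-coding genes as a whole, which is given with the other densities below.

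All 4 LTBP genes had an H3K27me3 peak over the start in every genotype and none had H3K27ac. Ltbp3 (ENSMUSG00000024940.11, chromosome 19 from 5740904 to 5758532, plus strand), whose product binds latent TGF-beta and is known from bone and tooth development, had the largest difference of the 4. A single WT peak of 25400 bp with 674 reads covered 99.4% of its window and all 28 exons. In mdx BMDM 4 peaks with 656 reads in all covered 67.0%, and in mdxTLR4-/- BMDM 3 peaks with 458 reads covered 57.1%. The part over the start remained in both, with 48.1 reads per kb in the mdx peak and 34.6 in the mdxTLR4-/- peak against 26.5 in the long WT peak. A gap opened inside the gene, where the start peak ended 0.296 kb past the start in mdx and 1.096 kb past it in mdxTLR4-/- and the next peak began at 5.297 and 5.497 kb.

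The other LTBP genes differed less. Ltbp4, which encodes a binding protein of elastic tissues such as lung, had 84.2% in WT, 92.0% in mdx and 88.9% in mdxTLR4-/-. Ltbp2, a protein of elastic fibres, had 58.1%, 53.5% and 53.9%. The long gene Ltbp1, the widely expressed member, had 9.37%, 10.3% and 7.74%, with the densest peaks at the start. In lists of equal size, which keep as many of the densest peaks from each list, its values were 9.37%, 5.81% and 3.67%, so that its difference between mdx and WT turned.

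Among the 9 BMP genes, 5, 5 and 4 were Increased in the order WT, mdx, mdxTLR4-/-. Bmp2 (ENSMUSG00000027358.6, chromosome 2 from 133552159 to 133562885, plus strand), an inducer of bone and cartilage, had the largest difference of this group, with a coverage of 78.0% in WT, 52.9% in mdx and 41.8% in mdxTLR4-/-. In WT the H3K27me3 peaks lay on both sides of the start, with 168 reads in a peak that ended 2.559 kb upstream, 301 reads in a peak that began 42 bp downstream and 55 reads in a peak near the end of the gene. In mdx the peak of the gene body held 436 reads and began 242 bp downstream, the upstream peak spanned 1200 bp with 35 reads, and the peak near the end was absent. In mdxTLR4-/- a single peak with 281 reads began 358 bp upstream and covered the start.

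The gap upstream of Bmp2 was the place of a small H3K27ac peak. It held 7 reads in WT, from 1.958 to 0.559 kb before the start, and 9 reads in mdxTLR4-/-, from 1.958 to 1.359 kb before it. In mdx the nearest H3K27ac peak lay 52.2 kb away. Bmp2 thus had both marks near its start in WT and mdxTLR4-/-, at separate bases.

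The remaining BMP genes ranged from no H3K27me3 to most of the window. Bmp10, known for its role in heart development, had 80.9% in WT, 63.2% in mdx and 66.8% in mdxTLR4-/-. In lists of equal size its mdx value was 32.7%. The paralogs Bmp8a and Bmp8b, which act in the male germ line, had 73.8%, 68.8% and 63.4%, and 62.7%, 56.0% and 58.4%. Their peaks also lay over the starts of Oxct2a and Oxct2b, and reads of such near-identical copies may be split between them. Bmp4, a patterning factor of the embryo, went the other way, with 51.7% in WT, 68.4% in mdx and 67.5% in mdxTLR4-/-, as did Bmp6, known to induce hepcidin in the liver, with 22.0%, 37.5% and 26.6%. The direction at Bmp6 did not hold in lists of equal size, where it had 22.0%, 19.4% and 12.5%. Bmp7, needed for kidney and eye development, had 32.1%, 28.2% and 30.3%, and Bmp3, an antagonist of bone-forming BMPs, had 17.8%, 13.9% and 10.6%. Bmp5, a skeletal BMP, had 0 in each genotype.

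The 11 GDF genes split into a covered and an uncovered set. Gdf7, a signal of the spinal cord roof plate, had 100% in each genotype, and Gdf6, a joint and eye factor, 92.4%, 95.8% and 84.9%. Gdf11, a factor of axial patterning, had 76.0%, 59.1% and 61.7%. On the other side, Gdf2 (also called BMP9, a circulating factor that acts on endothelium), Gdf9, Gdf15 and Mstn, which restrains muscle growth, had 0 in each genotype. Gdf3, an embryonic factor, had 0 in WT and mdx and 0.814% in mdxTLR4-/-, from the edge of a short peak with 134 reads in 1200 bp at 4.914 kb upstream.

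Gdf5 (ENSMUSG00000038259.4, chromosome 2 from 155941023 to 155945367, minus strand), a factor of joint formation, had the largest difference of all members. Its coverage was 84.7% in WT, 25.1% in mdx and 36.4% in mdxTLR4-/-, and its reads were 339, 79 and 155. In WT a peak with 158 reads lay over both exons and the start, and another with 181 reads lay upstream. In mdx 1 peak of 2600 bp with 79 reads remained over the start. In mdxTLR4-/- the start itself was free of H3K27me3, with 50 reads inside the gene from 0.167 kb and 105 reads in an upstream peak that ended 3.034 kb before the start. An H3K27ac peak of 5 reads, the minimum in the lists, lay over the start in mdxTLR4-/- and ended next to the base where H3K27me3 began.

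Gdf10 (ENSMUSG00000021943.7, chromosome 14 from 33923587 to 33937983, plus strand), also called BMP3b, had 65.7% in WT, 36.3% in mdx and 51.1% in mdxTLR4-/-, with 332, 333 and 312 reads. The unscaled reads were thus alike while the covered length differed. The 3 lists hold 8331331, 10199918 and 7358418 reads in peaks, so that the mdx reads of Gdf10 are a smaller share of their list. The peak over the start spanned 9800 bp at 25.3 reads per kb in WT, 4600 bp at 50.4 in mdx and 8200 bp at 30.6 in mdxTLR4-/-. A second peak inside the gene held 84, 101 and 61 reads.

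**Figure D3:**
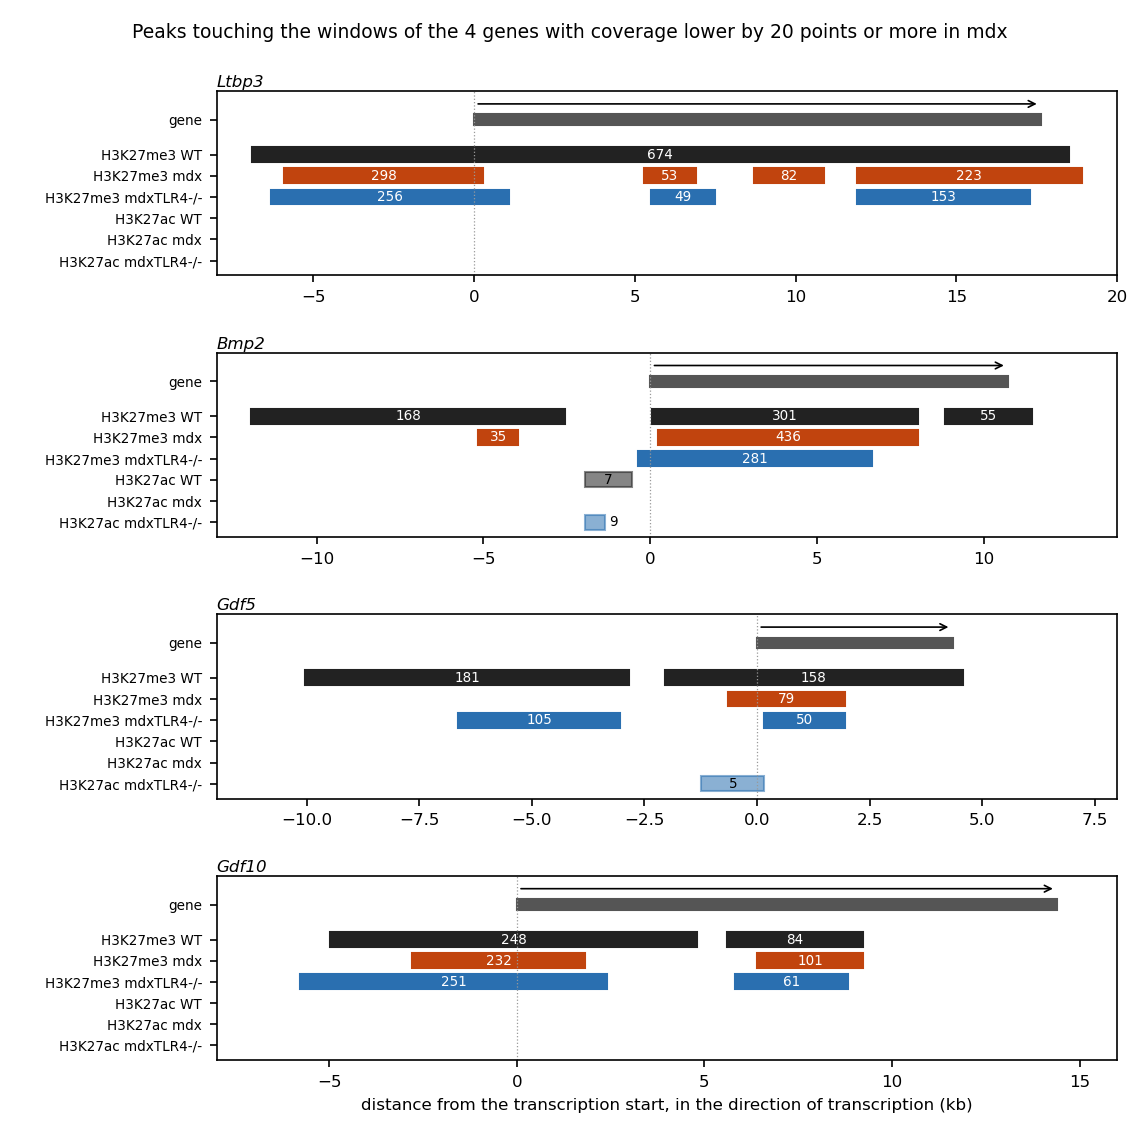
Peaks at Ltbp3, Bmp2, Gdf5 and Gdf10 against the distance from the transcription start in kb, with the gene body as a grey bar and an arrow for the direction of transcription. Each coloured bar is 1 peak with its read count (full colour for H3K27me3, pale for H3K27ac), in WT (black), mdx (red) and mdxTLR4-/- (blue). The mdx bars are shorter than the WT bars at all 4 genes while the unscaled reads at Ltbp3 (674 and 656) and Gdf10 (332 and 333) are alike. The WT list holds 8331331 reads in peaks and the mdx list 10199918.

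Of the activin and inhibin genes, Inha, whose product forms inhibin and antagonizes activin, was covered at 100% in each genotype. It lay inside a broad domain of 79000 bp in WT, 77800 bp in mdx and 76000 bp in mdxTLR4-/-, with 6468, 7544 and 6320 reads, which also lay over the starts of Asic4, Chpf, Obsl1 and Tmem198. The density of that domain, 81.9 reads per kb in WT, was the highest of all members and higher than that of 99.8% of the peaks of the list. Inhbb, which forms activin B, had 93.7%, 93.7% and 86.4%.

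Inhba, which forms activin A and is known to be induced in activated macrophages, had 15.5% in WT, 23.3% in mdx and 17.1% in mdxTLR4-/-. A peak inside the gene with 141, 182 and 135 reads was common to the 3 lists, and a second peak over the start with 44 reads was found in mdx alone. This second peak was lost in lists of equal size, among peaks of at least 2 kb and among denser peaks. The liver genes Inhbc (ENSMUSG00000025405.9, chromosome 10 from 127356322 to 127370431, minus strand) and Inhbe (ENSMUSG00000047492.5, chromosome 10 from 127348857 to 127354411, minus strand) are neighbours. Inhbc had 9.10% in WT, 29.8% in mdx and 30.8% in mdxTLR4-/-, with 54, 166 and 108 reads. Inhbe had 26.0%, 50.2% and 22.5%, with 77, 168 and 69 reads. Both genes share an mdx peak with 73 reads that was absent from WT and mdxTLR4-/-, so these differences are not independent. The mdxTLR4-/- peaks of Inhbc were sparse, and in lists of equal size its coverage there was 0.

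Nodal, which sets left-right asymmetry, had 69.0% in WT, 66.1% in mdx and 73.5% in mdxTLR4-/-. Its inhibitors had 55.4%, 49.0% and 66.1% for Lefty1 and 31.7%, 23.3% and 26.7% for Lefty2. All 3 genes had a peak over the start in every genotype and none had H3K27ac. Lefty1 was designated IUI, in the order WT, mdx, mdxTLR4-/-, with mdx just under the limit of 50%, while its reads were 197, 209 and 186.

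Amh (ENSMUSG00000035262.5, chromosome 10 from 80805243 to 80807648, plus strand), which causes regression of the Müllerian duct, had 10.1% in WT, 29.1% in mdx and 10.1% in mdxTLR4-/-. The source was a peak over the start of the downstream gene Jsrp1, with 340, 448 and 309 reads, whose upstream edge lay 2.558 kb past the start of Amh in WT and mdxTLR4-/- and 0.958 kb past it in mdx. Gdf1 (ENSMUSG00000109523.1, chromosome 8 from 70329817 to 70331587, plus strand), a left-right factor, had 0 in WT, 4.94% in mdx and 17.8% in mdxTLR4-/-. At Gdf1 too the difference came from an edge. A peak over the start of Cers1, with 483 reads in WT and 543 in mdx, ended 5.217 kb before the start in WT and 4.617 kb in mdx. In mdxTLR4-/- it was a separate short peak with 35 reads that reached into the window. In lists of equal size that short peak was absent and the mdxTLR4-/- coverage of Gdf1 was 0.

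Between genotypes, coverage was lower by at least 10 percentage points in mdx than in WT at 6 members (Ltbp3, Bmp2, Bmp10, Gdf5, Gdf10 and Gdf11), against 5.51% of protein-coding genes. It was higher at 5 (Bmp4, Bmp6, Inhbc, Inhbe and Amh), against 4.90%. From mdx to mdxTLR4-/- it was lower at 6 (Tgfb3, Bmp2, Bmp6, Gdf6, Inhbe and Amh), against 7.73%, and higher at 4 (Gdf1, Gdf5, Gdf10 and Lefty1), against 2.52%. Set against WT, mdxTLR4-/- was lower at 8 (Tgfb3, Ltbp3, Bmp2, Bmp8a, Bmp10, Gdf5, Gdf10 and Gdf11), against 8.41%, and higher at 4 (Bmp4, Gdf1, Inhbc and Lefty1), against 2.61%. A difference of at least 20 points between any 2 genotypes was found at 6 members (Ltbp3, Bmp2, Gdf5, Gdf10, Inhbc and Inhbe), against 7.04%. No H3K27me3 in any genotype was found in the window of 55.5% of protein-coding genes and of 6 of the 36 members, so that more of the members had coverage that could differ. The comparisons share genotypes and their counts are not independent.

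Lists of equal size changed some of these calls. Of those between mdx and WT, Bmp6 was no longer higher, and Ltbp2 and Bmp7 became lower by 11.9 and 10.7 points. Of those between mdxTLR4-/- and mdx, Bmp6, Gdf6 and Gdf1 were lost, while Bmp8a and Inhbc became lower and Bmp10 higher. All 8 members lower in mdxTLR4-/- than WT stayed so, while Gdf1 and Inhbc were no longer higher and Bmp4 and Lefty1 were.

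Of the 6 members lower in mdx, Gdf10 was higher again by 14.8 of the 29.4 points in mdxTLR4-/-, Gdf5 by 11.3 of 59.6, Bmp10 by 3.56 and Gdf11 by 2.59, while Ltbp3 and Bmp2 were lower again by 9.87 and 11.0. Of the 5 higher in mdx, Inhbe, Amh and Bmp6 were lower in mdxTLR4-/-, by 27.7, 19.0 and 11.0, while Bmp4 and Inhbc differed from mdx by less than 1 point. The members thus did not share a common course across the genotypes. They were chosen here by their mdx coverage, and mdxTLR4-/- was set against the same mdx list. A move back toward WT can therefore not be told apart from the effect of that choice. Over the 29 members with coverage in WT or mdx, the median difference of mdx from WT was -2.99 points (order-statistic interval -6.40 to 3.46). Of these, 16 were lower and 10 higher. Over protein-coding genes covered in either the median was 0, and 44.9% were lower. The median difference of mdxTLR4-/- from mdx over 30 members was -0.448 (-5.46 to 2.06), against -1.25 over protein-coding genes.

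Read density was compared at the members with a peak in both lists. The median unscaled ratio of mdx to WT was 1.19 (order-statistic interval 1.14 to 1.26) over 28 members, of which 27 were above 1 and Amh was at 0.933, and over protein-coding genes it was 1.20. The ratio of mdxTLR4-/- to mdx was 0.833 (0.802 to 0.877) over 29 members, against 0.812 over protein-coding genes, and that of mdxTLR4-/- to WT was 1.03 (0.970 to 1.08), against 0.975. The members thus moved with the lists as a whole. The direction depended on scaling, since with each list scaled to 1000000 reads in peaks the median ratios were 0.975 for mdx to WT and 1.15 for mdxTLR4-/- to mdx.

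**Figure D4:**
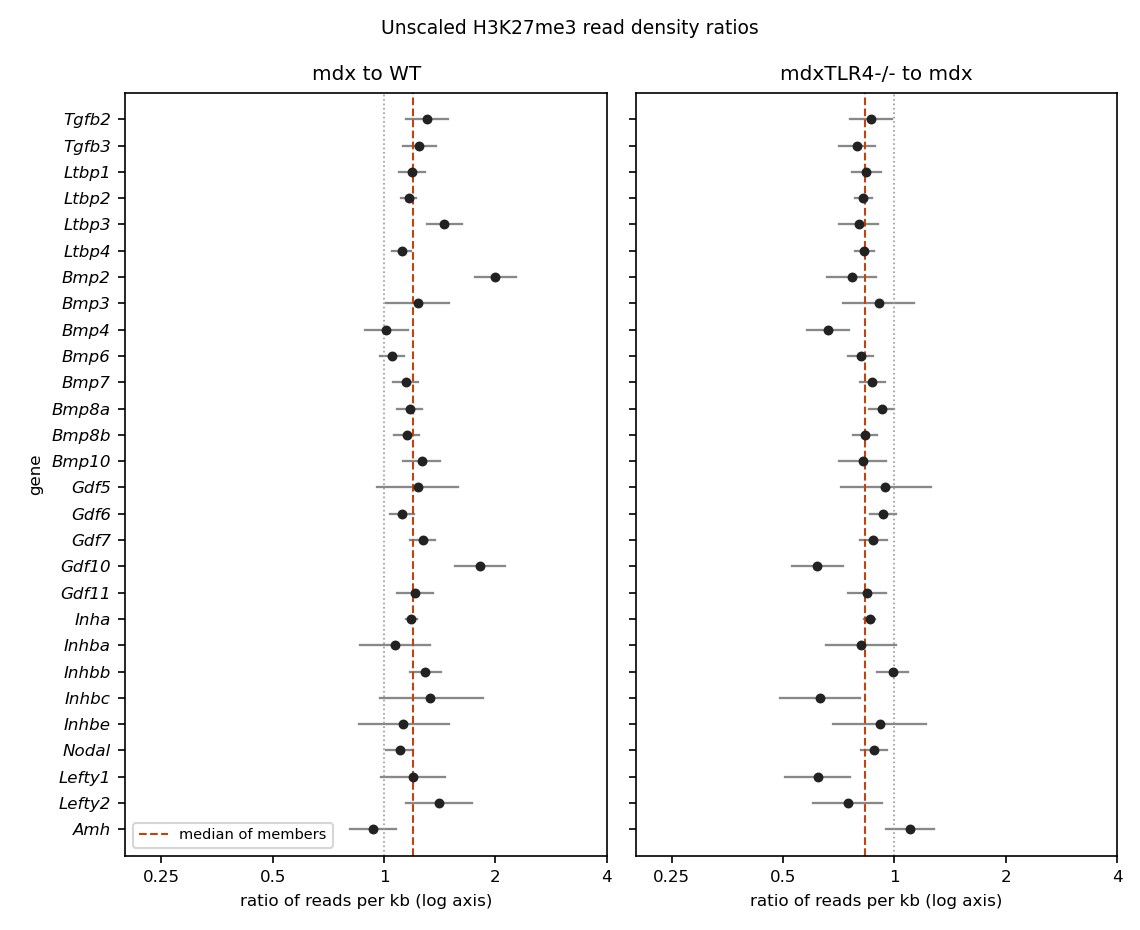
Unscaled ratio of H3K27me3 reads per kb, on a log axis, for mdx to WT (left) and mdxTLR4-/- to mdx (right) at the 28 members with a peak in both WT and mdx. Points are ratios, bars are exact intervals of the read counts, and the dashed line is the median of the members, 1.19 on the left and 0.833 on the right, where the median also counts Gdf1. Bmp2 and Gdf10 lie farthest to the right in the left panel, at 2.00 and 1.82. Each ratio pools all peaks that touch the window, and these differ between lists. At Bmp2 the upstream WT peak of 9400 bp had 17.9 reads per kb, and its mdx counterpart spanned 1200 bp. The peak of the gene body had 37.6 reads per kb in WT and 55.9 in mdx.

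The peaks over the start were also compared one by one at the 22 members that had them in all 3 genotypes. From WT to mdx the start peak was shorter at 17 and longer at 5, while it held more reads at 16 and fewer at 6. Of 4417 protein-coding genes with a start peak in all genotypes, 58.4% had a shorter and 38.1% a longer one in mdx, and 71.1% had more reads. The median length was 13.0 kb in WT, 10.9 kb in mdx and 9.30 kb in mdxTLR4-/-, and the median density 47.7, 55.3 and 47.4 reads per kb. Over those protein-coding genes the lengths were 14.0, 12.4 and 11.0 kb and the densities 38.3, 46.8 and 38.2 reads per kb, so that both sets had shorter start peaks in mdx than in WT. All 22 were denser in mdx than in WT without scaling, 12 with scaling to the reads in peaks and 17 when divided by the density at the 1st percentile of their list, against 90.9%, 48.6% and 64.0% of the protein-coding genes.

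The members whose coverage was lower by at least 20 points in mdx had less dense domains in WT than most other covered members. Beside the WT list as a whole they were not sparse. Their density was at or above that of 61.2% (Ltbp3), 59.5% (Bmp2), 50.5% (Gdf5) and 51.7% (Gdf10) of its peaks. The WT density of Ltbp3, Bmp2, Gdf5 and Gdf10 ranged from 24.6 to 26.5 reads per kb with a median of 25.5, and that of the other 24 members covered in WT from 20.8 to 81.9 with a median of 41.3. The same held for protein-coding genes as a whole, with a median of 24.4 for the 429 that were lower by at least 20 points and 31.4 for the other 7989. Less dense domains were not all lower in mdx. Inhbc and Inhbe, with 20.8 and 25.7 reads per kb in WT, were higher by 20.7 and 24.2 points. Ltbp1, with 25.5, was higher by 0.916, and Bmp10, with 25.0, was lower by 17.7. The denser domains were not all alike either. Coverage at Inha and Gdf7 was the same in WT and mdx, while that of Gdf11, with 48.2 reads per kb in WT, was lower in mdx by 16.9 points.

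H3K27ac was scarce at the members. Members with a peak within 5 kb of the start numbered 6 for WT, 3 for mdx and 5 for mdxTLR4-/-, against 32.0%, 27.4% and 29.4% of protein-coding genes. Tgfb1, Gdf9 and Gdf15 had one in each genotype, Bmp2 in WT and mdxTLR4-/-, Gdf5 in mdxTLR4-/- alone, and Gdf3 and Amh in WT alone. The mdxTLR4-/- list of H3K27ac rests on 1 library, so genotype and the number of libraries cannot be told apart there.

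Gdf15 (ENSMUSG00000038508.7, chromosome 8 from 70629393 to 70632456, minus strand), a stress-induced cytokine that acts on appetite, had an H3K27ac peak on either side of its start in every genotype. The upstream peak had 14 (WT), 21 (mdx) and 11 (mdxTLR4-/-) reads and the peak inside the gene 20, 12 and 9. Gdf9 (ENSMUSG00000018238.6, chromosome 11 from 53431023 to 53437904, plus strand), an oocyte factor, had a peak with 25, 13 and 12 reads that lay over its start in WT and mdxTLR4-/- and ended just before it in mdx, and in mdx there was another with 8 reads inside the gene. The peak at Gdf9 also lay over the start of Uqcrq, a subunit of respiratory complex III, so it cannot be assigned to Gdf9. The peaks of Gdf3 and Amh in WT belonged to neighbours as well. At Gdf3 (ENSMUSG00000030117.5, chromosome 6 from 122605403 to 122610087, minus strand) a peak over the start of Apobec1 that counted 222 (WT), 189 (mdx) and 156 (mdxTLR4-/-) reads came within 4.287, 5.087 and 5.687 kb of the start. At Amh a peak over the starts of Plekhj1 and Sf3a2 with 40, 33 and 32 reads came within 4.443, 5.443 and 6.043 kb. The same peak was thus present in all 3 lists, and only its edge crossed the limit of 5 kb in WT.

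**Figure D5:**
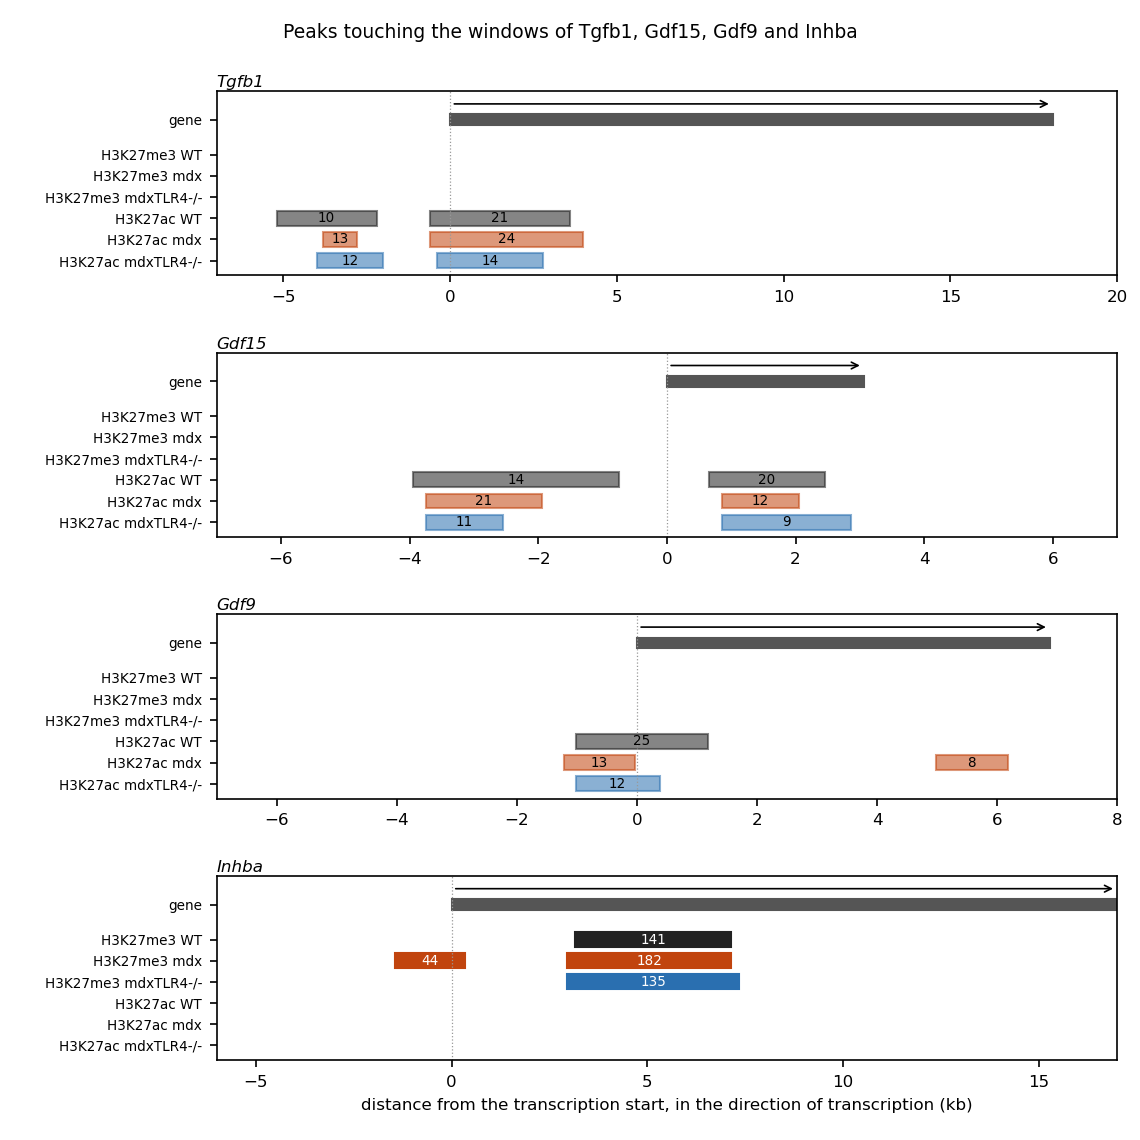
Peaks at Tgfb1, Gdf15, Gdf9 and Inhba against the distance from the transcription start in kb, drawn as at the other loci, with read counts in the bars. Tgfb1, Gdf15 and Gdf9 carry only H3K27ac (pale bars, 8 to 25 reads each), and Inhba carries only H3K27me3, with a bar of 44 reads over the start in mdx alone.

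Both marks lay within 5 kb of the same start at 2 members in WT (Bmp2 and Amh), 0 in mdx and 2 in mdxTLR4-/- (Bmp2 and Gdf5), with Amh counted only for the edges of its neighbours' peaks, against 4.37%, 3.88% and 3.78% of protein-coding genes. Bases under both marks were found at 0 members in each list, against 0.688%, 0.374% and 0.365% of protein-coding genes. The 3 members Bmp5, Gdf2 and Mstn had neither mark in any genotype, against 27.1%.

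CpG counts in the 8 printed promoters did not sort by these states. With H3K27ac near the start, Tgfb1 had 21 and Gdf15 had 1. Under H3K27me3 the counts ran from 2 at Ltbp3 to 35 at Gdf10, and with neither mark Mstn had 3 and Bmp5 had 4. Among the 25 members with a RefSeq window, the 17 with WT H3K27me3 over the 250 bases before the start had a median of 12 CpGs (range 2 to 35), and the 7 with neither mark there a median of 3 (1 to 7). Tgfb1, the 1 member with H3K27ac over the window, had 21. Over protein-coding genes the medians were 9 with H3K27me3, 17 with H3K27ac and 5 with neither. CpG-poor windows under H3K27me3 existed too, with 2 CpGs at Ltbp3, 3 at Bmp10 and Nodal and 4 at Inha. The RefSeq start lay over 100 bp from the GENCODE start at Bmp6, Inha, Inhbc and Inhbe. At Inhbe it lay 2563 bp away inside the gene, and the GENCODE start had no H3K27me3 peak over it in any genotype. The 7 with neither mark over the window in WT include Gdf15, with H3K27ac on either side of its start. They also include Inhba and Inhbc, with WT H3K27me3 elsewhere in their gene windows.

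In the same windows, searched on both strands, the letters TATAAA were found at 5 members (Tgfb2, Gdf2, Gdf11, Mstn and Inhba) and in 11.9% of 16522 promoters. TGACTCA, the AP-1 motif, was found at 0 members and in 3.93% of promoters, and GAGGAAGT, a PU.1 motif, at 0 and in 2.25%.

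Genes that act around the ligands carried less H3K27me3 than the ligands. Their shares of Increased genes and of H3K27ac lay near those of protein-coding genes as a whole, while start peaks of H3K27me3 were more common. These genes were 53 receptors, signal transducers, antagonists, activators and targets. Of these, 11 (WT), 10 (mdx) and 9 (mdxTLR4-/-) were Increased, against 16.6%, 16.3% and 14.9% of protein-coding genes. An H3K27me3 peak lay over the start of 21, 20 and 19, against 23.5%, 23.8% and 22.7%. H3K27ac lay within 5 kb of the start of 17, 13 and 13, against 32.0%, 27.4% and 29.4%. Among 14 receptor genes 1 was Increased in WT and none in mdx or mdxTLR4-/-, and the TGF-beta receptor Tgfbr2 had H3K27ac with 41, 49 and 24 reads. Among 8 Smad genes none was Increased and 4, 3 and 3 had H3K27ac, among them the inhibitory Smad7 with 31, 14 and 18 reads. The 16 secreted and membrane antagonists were most like the ligands, with 6 Increased in each genotype, such as Nog at 100% throughout, and with H3K27ac at 1, 0 and 1.

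From WT to mdx, 4 of the 53 genes were lower by at least 10 points and 4 higher, against the 5.51% and 4.90% of protein-coding genes given above. The receptor of Amh, Amhr2, had 76.2% in WT, 47.2% in mdx and 44.5% in mdxTLR4-/-, and the BMP antagonist Grem1 had 28.1%, 53.0% and 37.9%. Mmp14, a membrane protease that can release TGF-beta, had 84.9%, 55.7% and 69.7%, with 8, 17 and 0 reads of H3K27ac near its start. The BMP target genes Id1 and Id3 went opposite ways, with 0, 35.6% and 32.8% at Id1 and 90.3%, 51.6% and 44.3% at Id3.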

How the data were processed

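The authors cut native chromatin with micrococcal nuclease, mapped reads to mm10 with Bowtie2, merged replicates and called peaks with SICER2 (windows of 200 bp, gaps of 600 bp, FDR of 0.01). The submitters' processing notes name CASAVA 1.8, cutadapt 1.15, Bowtie2 2.3.4 and SICER 2.0. The deposited values are counts of ChIP reads per peak, as the peak caller wrote them, unscaled and with the input not subtracted. The label mTLR4 was read as mdxTLR4-/-.

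Here, coverage of gene windows, reads and read density were computed from these counts for GENCODE vM21 genes. Exons were counted in the coding transcript that has the most of them. With 1 merged list per genotype no test was made. Exact Clopper-Pearson intervals cover the read counts and order-statistic intervals the members, which are not replicates. Alternatives were other coverage limits and windows, equal numbers of peaks, longer or denser peaks, H3K27ac limits and 2 scalings.

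The members and all lists were chosen with earlier results of these data known. Full values were given for members with differences of at least 20 points, for members with H3K27ac and for the TGF-betas. Among the other genes of the pathway, those with at least 20 points between WT and mdx were named, at most 3 per group, and further genes as examples chosen after their values were seen. Promoters came from RefSeq. Simulated peak lists were used for a check, in which 884 of 884 windows had the coverage made. Python 3.11.15, numpy 2.4.6, scipy 1.17.1 and matplotlib 3.10.9 were used.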

Additional observations from a re-analysis of the deposited data

How the results depend on the processing

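Of 120 alternative values for 30 results, 86 were alike, 30 moved and 4 changed direction. Each was set against its own main value, so a changed order between genotypes was not counted. The 4 were density ratios that crossed 1. Values called alike could still shift, as from 36.9% to 58.0% for the median coverage of mdx within 5 kb of the start. No paired analysis was possible because the authors merged the replicates before calling peaks, and for the same reason no replicate could be left out. The counts of Increased members were 9 in WT, 5 in mdx and 5 in mdxTLR4-/- with a limit of 80%. With a limit of 20% they were 22, 25 and 23, so that WT went from the highest count to the lowest. With a difference of at least 20 points, 2 members were higher in mdx than WT, 1 was lower and 0 higher in mdxTLR4-/- than mdx, and 3 were lower and 1 higher in mdxTLR4-/- than WT. Higher in mdxTLR4-/- than WT were 2 with equal numbers of peaks and 2 with denser peaks. Within 5 kb of the start the median coverage was 76.3% in WT, 58.0% in mdx and 63.5% in mdxTLR4-/-, so that the order of mdx and mdxTLR4-/- turned. That order also turned with equal numbers of peaks (31.3% in mdx and 33.4% in mdxTLR4-/-) and with denser peaks (30.9% and 33.3%). It held with peaks of at least 2 kb (35.9% and 30.6%). Members with both marks in WT were 1 within 1 kb, 1 upstream and 1 with H3K27ac peaks of at least 10 reads, and in mdxTLR4-/- 1 within 1 kb and 0 with at least 10 reads, where 3 had H3K27ac. Shares of protein-coding genes under these alternative settings are not given here, so these member counts cannot be read against them.

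Each list was scaled either to 1000000 reads in peaks or by its 1st percentile of density. In this order, the median density ratios were 0.975 and 1.03 for mdx to WT, 1.15 and 1.06 for mdxTLR4-/- to mdx, and 1.16 and 1.12 for mdxTLR4-/- to WT. For mdx to WT, Tgfb2 had 1.06 and 1.12, Tgfb3 1.02 and 1.07, and Inha 0.967 and 1.02. For mdxTLR4-/- to WT, Tgfb3 had 1.12 with the first scaling and Inha 1.15 and 1.11. The scalings themselves set these shifts, and library depth is not known. Any annotated protein-coding transcript start, an alternative chosen after seeing the data, gave 23, 24 and 24 members with a peak over it. H3K27ac peaks of a few reads limit what their absence can show.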
